A study of Mus musculus with 3 samples.

Results

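The 8 genes described here encode the reactive-oxygen and arginine-using enzymes of myeloid cells: Cybb, Cyba, Ncf1, Ncf4 and Rac2 of the phagocyte NADPH oxidase, the inducible nitric oxide synthase gene Nos2, and the arginase genes Arg1 and Arg2. They were chosen by symbol, and all 8 were found among the 17857 genes of the deposited count table. The table covers 3 RNA sequencing libraries of 1 population from C57BL/6J mice. Tumours of B16F10, a melanoma line, had grown for 14 days on both thighs without treatment, the draining lymph nodes were pooled, and CD11c-negative cells carrying Ly6C and c-kit were sorted. The libraries, called replicates 1, 2 and 3, are repeat experiments on the same kind of sample, and the labels give no control population, so every comparison below is between genes, between libraries, or against a stated level. The sources used here do not give the number, age or sex of the mice in a pool. Each p-value therefore rests on 3 libraries alone, and part of their spread may be technical. The tests of a gene against a stated level also borrow the spread of other genes.

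The phagocyte oxidase moves electrons from NADPH across a membrane to oxygen and so makes superoxide. Its core is a membrane pair, gp91phox (Cybb) and p22phox (Cyba), which is silent until cytosolic proteins, p47phox (Ncf1) and p40phox (Ncf4) among them, and a Rac GTPase join it. Nitric oxide synthases and arginases compete for the same substrate, arginine. Nos2 and Arg1 are induced genes, classically read as marks of opposite states of macrophages, and myeloid cells of tumours are known to use arginase, Nos2 and the oxidase to hold back T cells.

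Libraries held 9077195, 13885509 and 13861430 counts in replicates 1, 2 and 3. Levels are normalised read counts (CPM, scaled to a common library size), which do not account for gene length, or CPM per kilobase of gene, which do. The sort genes were present but uneven: Kit lay between 5.35 and 9.83 CPM, Ly6c1 between 4.28 and 19.1 CPM and Ly6c2 between 11.5 and 121 CPM. Itgax, which encodes the excluded CD11c, lay between 24.0 and 43.2 CPM and exceeded Kit in all 3 libraries. Kit's mean of 7.03 CPM was under the median of all genes tested (12.4 CPM). Of the leukocyte marker lists, the T cell list had the highest sum in all 3 libraries. The 10 T cell markers summed to 3568, 4001 and 4334 CPM in replicates 1, 2 and 3, and the 10 monocyte markers to 846, 1618 and 474 CPM. In bulk libraries such as these, fewer cells of a type and less RNA per cell cannot be told apart.

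The oxidase genes and the arginine genes parted clearly. All 5 oxidase genes (Cybb, Cyba, Ncf1, Ncf4, Rac2) lay above 1 CPM in edgeR's quasi-likelihood test, a level at which few reads cover a gene, and none of Nos2, Arg1 and Arg2 was separated from it (edgeR adjusted p = 0.768, 0.725 and 0.141; 0 of these 3 also by DESeq2 and limma, and 0 at an unadjusted p under 0.05). Of all 15490 genes tested, 68.6% lay above 1 CPM, so 5 of 8 is near the background share. Against 50 CPM, a level of well transcribed genes, Rac2, Cybb and Cyba lay above, against 19.9% of all genes, and Nos2, Arg1 and Arg2 lay below, against 66.7%. Ncf1 and Ncf4 were not separated from 50 CPM. The median of the 8 genes' mean levels was 48.7 CPM, beside 12.4 CPM over all genes tested.

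**Figure D1:**
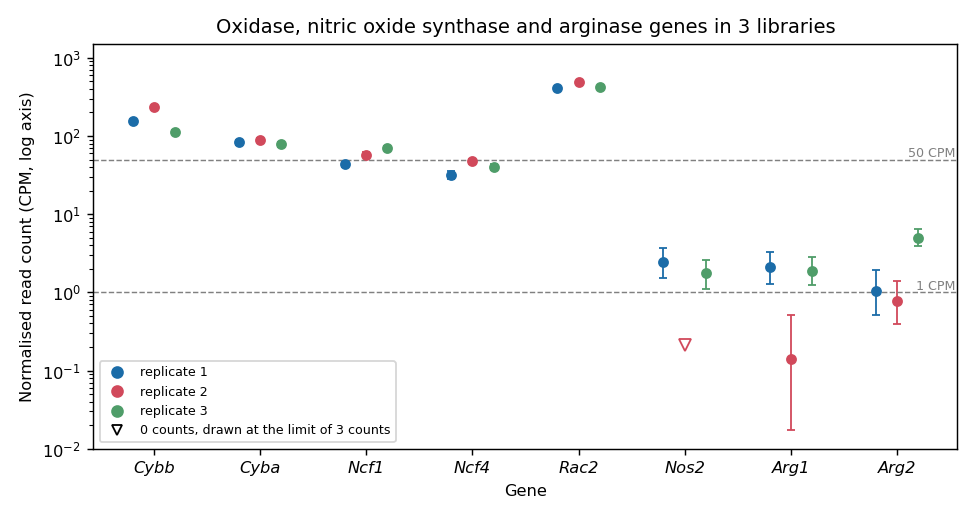
Normalised read counts (CPM, log axis) of the 8 genes in each library, with exact 95% Poisson intervals as bars, which cover counting error only. The 5 oxidase genes sit between 31.9 and 486 CPM in all 3 libraries, while Nos2, Arg1 and Arg2 sit between 0 and 5.01 CPM.

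Promoter sequence is shown for the 3 genes with an entry in RefSeq's promoter table for GRCm38.p6, the assembly that mm10 represents: both genes of the membrane pair and the organiser Ncf1. Each line gives the 250 bases before the annotated start, 5′ to 3′ on the gene's own strand, with capitals at GGAA or its complement TTCC, the core that ETS factors such as PU.1 bind. The start is that of the table's transcript, which for Cybb lies inside the span of the gene. The windows are chrX:9469325-9469574 (Cybb, minus strand), chr8:122432941-122433190 (Cyba, minus strand) and chr5:134229626-134229875 (Ncf1, minus strand).
Cybb: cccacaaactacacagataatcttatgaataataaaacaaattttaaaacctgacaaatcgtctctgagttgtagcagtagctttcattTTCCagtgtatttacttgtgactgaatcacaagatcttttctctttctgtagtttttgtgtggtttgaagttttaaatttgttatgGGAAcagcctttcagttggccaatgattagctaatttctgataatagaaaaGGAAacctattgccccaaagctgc
Cyba: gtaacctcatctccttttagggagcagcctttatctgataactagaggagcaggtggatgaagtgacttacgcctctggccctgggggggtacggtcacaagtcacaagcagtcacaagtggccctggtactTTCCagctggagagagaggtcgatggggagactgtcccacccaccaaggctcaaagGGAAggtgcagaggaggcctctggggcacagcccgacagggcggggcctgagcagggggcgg
Ncf1: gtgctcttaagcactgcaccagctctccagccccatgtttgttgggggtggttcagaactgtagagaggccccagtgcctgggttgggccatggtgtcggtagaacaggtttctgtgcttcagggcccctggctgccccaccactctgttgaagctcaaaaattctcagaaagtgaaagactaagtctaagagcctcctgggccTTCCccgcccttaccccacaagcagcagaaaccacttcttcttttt

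The 3 promoters differ in base composition. Cybb's window was 34.0% G and C, Cyba's 60.0% and Ncf1's 54.4%. GGAA was found 3 times before Cybb, at 161, 75 and 24 bases before the start, 2 times before Cyba, at 118 and 62 bases, and 1 time before Ncf1, at 46 bases. Both strands of 32851 promoter windows were searched, which are those of the table without 1 chromosome that was left out. GGAA occurred in 93.4% of them, with a median of 3 matches, so its presence sets none of these genes apart. The longer GAGGAA, which contains GGAA, was in none of the 3 windows and in 23.3% of all, TATAAA was in none and in 12.4% of all, and CCAAT was in Cybb's, 56 bases before the start, and in 33.8% of all. These motifs were chosen after the sequences had been seen.

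Cybb encodes gp91phox, the electron-carrying subunit that gives the oxidase its activity. The gene spans chrX:9435252-9487766. Its levels in replicates 1, 2 and 3 were 155, 233 and 113 CPM (167 ± 61.1, SD, n = 3), the 92.7th percentile of the genes tested. Replicate 2 was highest and replicate 3 lowest, a 2.06-fold range, and the counting intervals of the 3 libraries did not overlap. Cybb lay above 50 CPM by 1.74 on the log2 scale (edgeR adjusted p = 8.43e-05), and above it in each library.

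Cyba encodes p22phox, the partner without which gp91phox is unstable, and spans chr8:122424771-122432940. It was read at 82.7, 88.4 and 78.0 CPM (83.0 ± 5.19) and lay above 50 CPM by 0.73 on the log2 scale (edgeR adjusted p = 0.00135). It was the most even of the 8 genes. Its highest library was 1.13 times its lowest, the 6.74th percentile of this ratio over the 11045 genes with at least 10 counts in every library, whose median ratio was 1.49. Per kilobase Cyba stood above Cybb, with 109 ± 6.83 CPM per kilobase against 35.2 ± 12.9, since the deposited gene lengths were 759 and 4752 bases.

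Ncf1 encodes p47phox, the organiser that carries the cytosolic complex to the membrane, and spans chr5:134220053-134229628. Its levels were 44.0, 57.9 and 70.1 CPM (57.3 ± 13.1), with replicate 3 highest, and was not separated from 50 CPM (edgeR adjusted p = 0.282). Ncf4 encodes p40phox, which binds a phosphoinositide of phagosomes, and spans chr15:78244164-78262582. It was read at 31.9, 47.6 and 40.6 CPM (40.01 ± 7.84), with replicate 2 highest, and was not separated from 50 CPM either (0.111), although it lay below 50 CPM without replicate 2 (0.0391). Both cytosolic genes were lowest in replicate 1.

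Of the summed per-kilobase level of the 4 phox genes among the 8, Cyba took 56.9 ± 3.81%, Cybb 17.9 ± 4.59%, Ncf4 14.2 ± 1.74% and Ncf1 11.0 ± 2.88%. Cyba ranked first of these 4 in all 3 libraries, whereas Cybb came second in replicates 1 and 2 and last, behind Ncf4 and Ncf1, in replicate 3. The place of Cybb therefore did not hold over the libraries, whereas Ncf4 ranked above Ncf1 in all 3. In replicate 3 Cybb, Ncf1 and Ncf4 lay close, at 23.8, 25.8 and 27.9 CPM per kilobase. Their order there rests on deposited lengths of 4752, 2721 and 1454 bases, which are shorter than their GENCODE M21 exons (5808, 3663 and 2020 bases).

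Rac2, the Rac GTPase of blood cells, spans chr15:78559169-78572783 and was the highest of the 8 genes per kilobase as well as in CPM. It was read at 414, 486 and 421 CPM (440.2 ± 39.7), the 98.4th percentile of genes tested, and lay above 50 CPM by 3.14 on the log2 scale (edgeR adjusted p = 2.50e-07). Its highest library was 1.17 times its lowest, the 11.0th percentile of that ratio. Rac1, its widely expressed relative, was read at 150.1, 194 and 169 CPM and also lay above 50 CPM (1.01e-05). Rac2 also serves actin and receptor signals in lymphocytes. The T cell marker sum was 0.899 to 1.09 times its mean, but was highest in replicate 3, whereas Rac2 was highest in replicate 2. Each of the 10 T cell markers was less even than Rac2, with ratios from 1.25 (Lat) to 1.61 (Il7r). The part of T cells in the level of Rac2 was not tested.

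**Figure D2:**
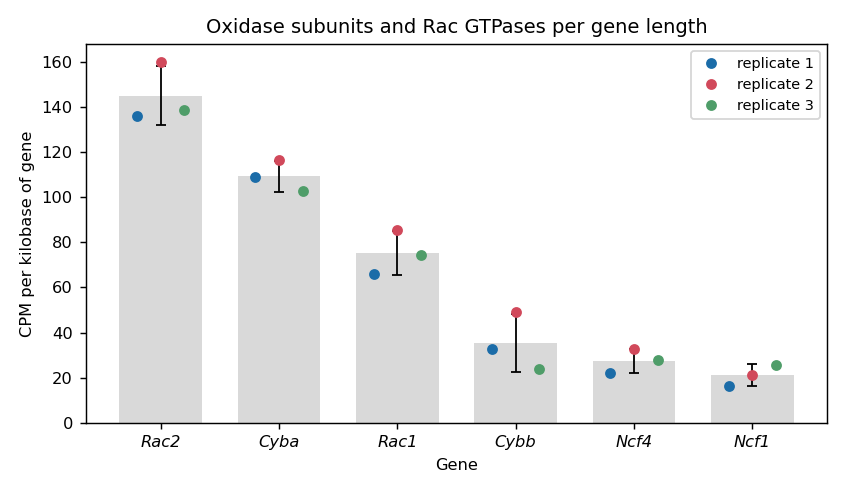
CPM per kilobase of gene for 4 phox genes and Rac1 and Rac2. Bars are means and error bars SD over 3 libraries, points are libraries; Rac2 (145 ± 13.1) and Cyba (109 ± 6.83) stand highest and Ncf1 (21.1 ± 4.81) lowest.

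Nos2 encodes the inducible nitric oxide synthase of activated macrophages and spans chr11:78920787-78960226. It had 23, 0 and 23 counts in replicates 1, 2 and 3, which is 2.43, 0 and 1.75 CPM. The absence of counts in replicate 2 allows a level of up to 0.214 CPM there (3 counts, counting error only). Nos2 lay below 50 CPM in edgeR's test (adjusted p = 0.0268) and was not separated from 1 CPM (0.768).

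Arg1 encodes the cytosolic arginase of liver and of alternatively activated macrophages, and spans chr10:24915207-24927470. It had 20, 2 and 25 counts, or 2.11, 0.143 and 1.90 CPM. Replicate 2 was again lowest, and its 95% Poisson interval (0.0173 to 0.515 CPM) did not reach those of replicate 1 (1.29 to 3.26) or replicate 3 (1.23 to 2.80). Arg1 lay below 50 CPM (edgeR adjusted p = 0.0134).

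Arg2 encodes the mitochondrial arginase and spans chr12:79130788-79156301. Its counts of 10, 11 and 66 correspond to 1.06, 0.784 and 5.01 CPM. Replicate 3 stood apart, at 6.39 times the lowest library, the 97.0th percentile of this ratio over genes. Arg2 was not separated from 1 CPM with all 3 libraries (edgeR adjusted p = 0.141), but lay above it without replicate 1 (0.0401) and without replicate 2 (0.0268), and its fitted level was -0.083 on the log2 scale relative to 1 CPM without replicate 3. It lay below 50 CPM (0.00674). Of its exonic bases, 285 overlap Vti1b on the opposite strand in GENCODE M21, a gene with 654, 702 and 960 counts. The sources used here do not give the strand setting of the counting, so part of the Arg2 counts may belong to Vti1b. A like overlap of 408 bases joins Ncf1 and Gtf2ird2, which had 171, 458 and 303 counts.

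The 3 edgeR calls below 50 CPM were lost when replicate 3 was left out, although the fitted levels moved no closer to 50 CPM. With all libraries these levels were -5.17, -5.18 and -4.45 for Nos2, Arg1 and Arg2 on the log2 scale relative to 50 CPM. Without replicate 3 edgeR called 0 of the 3, and 0 at an unadjusted p under 0.05. The fitted levels were then -5.33, -5.44 and -5.73 for Nos2, Arg1 and Arg2 (edgeR adjusted p = 0.158, 0.159 and 0.181). DESeq2 and limma called all 3 below 50 CPM with all libraries, and were not run with a library left out.

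The levels of the 3 low genes were set against those of 578 olfactory receptor genes, which leukocytes rarely use. Those genes averaged 0.249, 0.0207 and 0.0495 CPM per kilobase in replicates 1, 2 and 3. This background was highest in replicate 1 and lowest in replicate 2, the order of the values of Nos2 and Arg1. For both genes, however, the Poisson intervals of replicates 1 and 3 overlapped, so only replicate 2 stood apart. Nos2 reached 0.609 CPM per kilobase in replicate 1, above 88.8% of olfactory receptor genes there, and 0.438 in replicate 3, above 97.1%. Arg1 exceeded 98.4%, 93.9% and 100% of them in replicates 1, 2 and 3, and Arg2 exceeded 92.6%, 99.3% and 100%. In replicate 1, Nos2 and Arg2 lay under the 95th percentile of the olfactory receptor genes (0.906 CPM per kilobase). In replicate 2, 91.2% of the olfactory receptor genes had no count. Arg1, with 2 counts, and Nos2, with 0, lay under their 95th percentile there (0.151 CPM per kilobase), and Arg2 above it. In replicate 3 all 3 genes lay above it (0.320 CPM per kilobase).

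**Figure D3:**
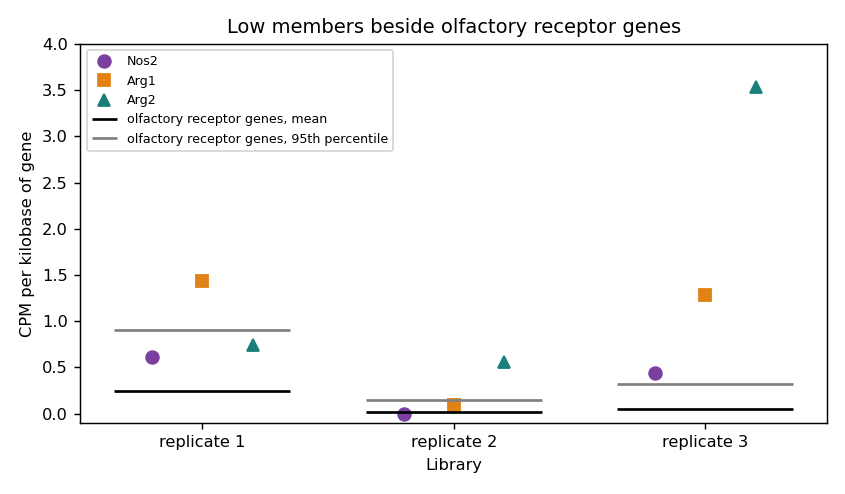
CPM per kilobase of Nos2, Arg1 and Arg2 in each library, with the mean (black) and 95th percentile (grey) of 578 olfactory receptor genes. Arg2 in replicate 3, at 3.54 CPM per kilobase, is the highest point, and Nos2 in replicate 2 is at 0.

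Genes with like or rival roles were compared per kilobase within each library, as log2 differences for 6 pairs. Cyba exceeded Cybb by 1.74, 1.24 and 2.11 (mean 1.70 ± 0.43). Rac2 exceeded Rac1 by 1.04, 0.90 and 0.90 (0.95 ± 0.08), and Ncf1 was under Ncf4, with differences of -0.44, -0.62 and -0.12 (-0.39 ± 0.26). Arg2 against Arg1 gave -0.91, 2.26 and 1.44 and so had no common direction (0.93 ± 1.64, exact permutation p = 0.5, adjusted 0.5). The other pairs had the same sign in 3 of 3 libraries and an exact two-sided permutation p = 0.25, the smallest that 3 libraries allow (0.3 adjusted over the 6 pairs), so none could pass 0.05.

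The last pairs set the oxidase core and Arg2 against Nos2. Cybb was read per kilobase at 53.6 and 54.4 times the level of Nos2 in replicates 1 and 3. In replicate 2, with Nos2 taken at 3 counts in place of 0, Cybb was at 916 times that level. Arg2 was 1.22 and 8.08 times Nos2 in replicates 1 and 3, and 10.3 times Nos2 at 3 counts in replicate 2. The values for replicate 2 leave out the counting error of Cybb and Arg2 (11 counts of Arg2), so they are not strict lower bounds. These ratios rest on at most 23 counts of Nos2, and in replicate 1 Nos2 and Arg2 were within the range of the olfactory receptor genes. Rac1 overlaps Daglb on the opposite strand by 2309 exonic bases, and Rac1's deposited length of 2269 bases is shorter than its GENCODE M21 exons (4496 bases).

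The sums of the 3 myeloid marker lists spanned wider ranges between libraries than the 5 oxidase genes did. The monocyte marker sum, led by Lyz2 and Fn1, was 1.65 times its mean over libraries in replicate 2, 0.864 times in replicate 1 and 0.484 times in replicate 3, the same order as Cybb (1.40, 0.928 and 0.676 times its own mean). All 10 monocyte markers had counts in each library, but 5 were highest in replicate 1 and 5 in replicate 2, so the order of the sum was not that of each marker. The neutrophil sum, led by S100a9 and Csf3r, was 221, 95.2 and 963 CPM in replicates 1, 2 and 3. All 10 of its members were highest in replicate 3, as were Arg2 and Ncf1. The neutrophil sum was lowest in replicate 2, whereas Ncf1 was lowest in replicate 1. Ncf1 rose from replicate 1 to 2 to 3, as the T cell sum did. Ly6g, a defining neutrophil marker, had no count in replicates 1 and 2. The macrophage sum, led by Apoe and Mrc1, was 1032, 99.4 and 231 CPM, highest in replicate 1 and lowest in replicate 2. Nos2 and Arg1 were also lowest in replicate 2, but their Poisson intervals in replicates 1 and 3 overlapped. Trem2 had no count in replicate 1 and Vsig4 none in replicate 2.

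Other cell types moved in their own ways. The eosinophil sum (Ccr3 and Il5ra highest) was 79.6, 6.70 and 25.5 CPM, with Epx at 0 in replicate 2, and the B cell sum (Cr2 and Bank1) was 426, 167 and 226 CPM. The erythroid sum (Hbb-bs and Hba-a1) was 4285, 64.6 and 308 CPM, with Epor at 0 in replicate 2. All 3 sums were lowest in replicate 2, as were Nos2 and Arg1. They were highest in replicate 1, which Nos2 and Arg1 did not set apart from replicate 3. The natural killer cell sum (Eomes and Gzma) was 83.1, 612 and 253 CPM. The endothelial sum was 201, 157 and 198 CPM, nearly all from Pecam1, which leukocytes share, followed by Kdr, with Cldn5 at 0 in all 3 libraries. The part that any of these cells had in the levels of the 8 genes was not tested.

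**Figure D4:**
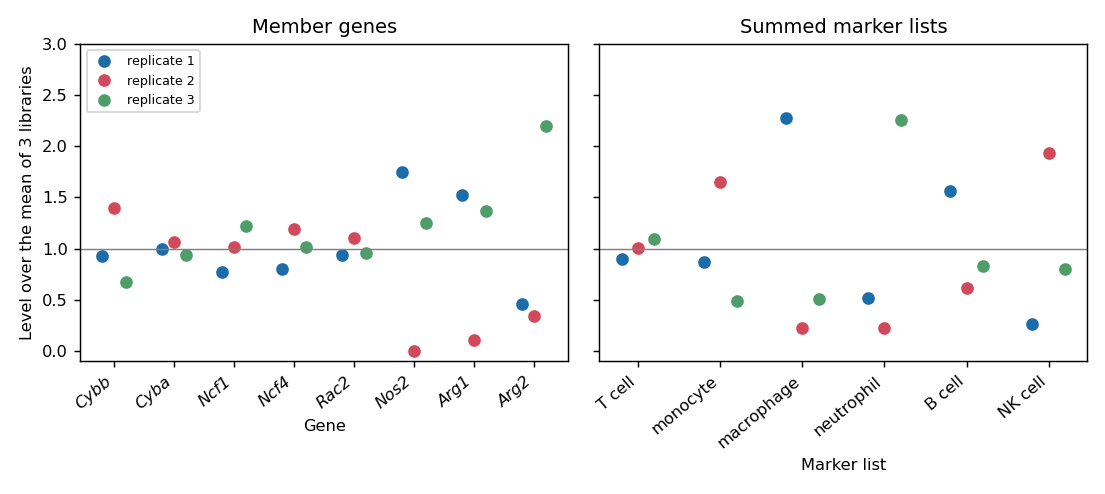
Level in each library divided by the mean of the 3 libraries, for the 8 genes (left) and for 6 summed marker lists (right). Cyba and Rac2 stay between 0.939 and 1.10, whereas Arg2 reaches 2.19 in replicate 3, where the neutrophil sum reaches 2.26.

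The wider pathways were followed through 7 lists, of which 86 measured genes are not among the 8. Of these, 3 had too few counts to be tested. In edgeR's test, 65 of these 86 lay above 1 CPM, 26 above 50 CPM and 39 below 50 CPM, beside 68.6%, 19.9% and 66.7% of all genes tested. Those 3 shares are the background for the counts of each list. The counts and medians of each list, below, include the 8 genes where they belong to it. In the list of the oxidase and its activators, all 13 measured genes lay above 1 CPM and 8 above 50 CPM, with a median of 99.3 CPM beside 12.4 CPM over all genes tested. Prex1, an exchange factor for Rac, was read at 344, 799 and 506 CPM, and Arhgdib, an inhibitor that holds Rac in the cytosol, at 445 ± 32.9 CPM. Pak1, a kinase that Rac activates, was lowest at 11.0 ± 3.49 CPM and lay below 50 CPM (edgeR adjusted p = 5.54e-04). Cybc1 was not analysed here.

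The other NADPH oxidases were near or under 1 CPM. Of the 9 genes in this list (median 0.581 CPM), edgeR, DESeq2 and limma each placed 0 over 1 CPM, with 0 at an unadjusted p under 0.05, although Noxo1 did when edgeR's own expression filter left it as the only one tested. Noxo1 and Nox1, an organiser and a catalytic subunit of epithelial oxidases, were highest at 1.90 ± 0.283 and 1.85 ± 1.64 CPM. Duoxa2 and Nox4 had counts in replicate 1 alone, and Nox4 had too few to be tested.

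Nitric oxide synthesis needs a synthase, the cofactor tetrahydrobiopterin and arginine. Nos1 was read at 7.08, 0 and 0.608 CPM and Nos3 at 3.70, 0 and 0.456 CPM, so like Nos2 neither had a count in replicate 2, and both were highest in replicate 1. Of all 17857 genes, 632 were at 0 in replicate 1, 3788 in replicate 2 and 2199 in replicate 3, so zeros in replicate 2 were common among low genes. Gch1, the first enzyme of the cofactor tetrahydrobiopterin, was read at 13.3 ± 2.50 CPM and Qdpr, which recycles that cofactor, at 22.8 ± 2.30 CPM. Nosip, a protein that binds nitric oxide synthases, was highest at 39.2 ± 1.08 CPM, and Gchfr and Ddah1 had counts in 1 library each. Ass1 (9.31 ± 1.07 CPM) and Asl (12.97 ± 3.06 CPM), which rebuild arginine from citrulline, both lay above 1 CPM and below 50 CPM. Of the 13 measured genes 7 lay above 1 CPM and 10 below 50 CPM, with a median of 9.31 CPM, beside 68.6% and 66.7% of all genes tested. The 13 include 2, Gchfr and Ddah1, with too few counts to be tested. With edgeR's expression filter the 10 became 6. Over 50 CPM there were 0 with each of edgeR, DESeq2 and limma, and 0 at an unadjusted p under 0.05.

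Among genes that move or use arginine, 12 of 15 measured lay above 1 CPM, 3 above 50 CPM and 9 below (median 18.5 CPM), near the shares of all genes (68.6%, 19.9% and 66.7%). Azin1, which stabilises ornithine decarboxylase, was read at 136 ± 30.3 CPM. Slc7a1, the housekeeping arginine transporter, was read at 76.6, 105 and 78.9 CPM and lay above 50 CPM (edgeR adjusted p = 0.00149). Slc7a2, the arginine transporter of activated macrophages, was read at 9.09, 0.998 and 0.987 CPM, so its level came from replicate 1. It lay above 1 CPM (0.0165), but not without replicate 1 (0.969). Otc, a urea cycle gene of liver, was at 0.368 ± 0.323 CPM, and Agmat was not analysed here.

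In the NADPH supply list, 8 of 9 genes lay above 1 CPM and 4 above 50 CPM, beside 68.6% and 19.9% of all genes. The median of the list was 47.1 CPM. Tkt and Taldo1 of the pentose phosphate pathway were highest (126 ± 31.8 and 111 ± 17.2 CPM), and Nnt (24.6 ± 5.56) and Me1 (0.513 ± 0.575) lowest. G6pdx (43.7 ± 8.21 CPM) and Pgd (47.1 ± 7.81 CPM) were not separated from 50 CPM (edgeR adjusted p = 0.291 and 0.615). G6pdx and Pgd were named after their values were seen. Which genes of the list supply NADPH to the oxidase was not tested. Of the cytokines, receptors and factors that induce Nos2 or Arg1, 12 of 14 measured genes lay above 1 CPM and 8 above 50 CPM (median 151 CPM), against the same 68.6% and 19.9%. Il4ra, the receptor chain for interleukins 4 and 13, was read at 275 ± 54.8 CPM. The cytokine genes Il4 (2.01, 0 and 1.06 CPM) and Il10 (0.740, 0.143 and 0.911 CPM) were lowest in that list, and Ifng and Il13 were not analysed here. Most genes of these lists are also expressed by lymphocytes, and which of the sorted cells held them was not tested.

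**Figure D5:**
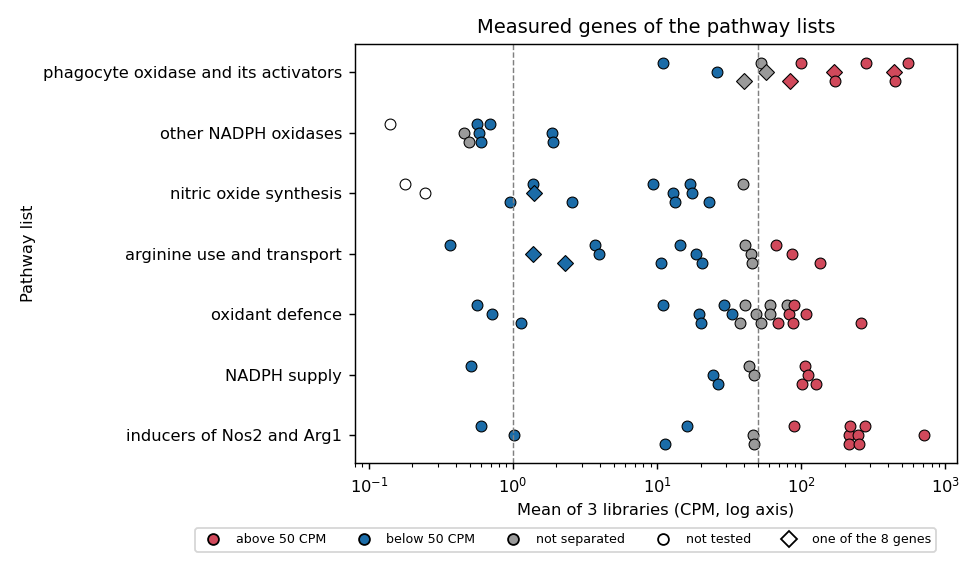
Mean CPM over 3 libraries (log axis) of each measured gene in 7 pathway lists, coloured by its call against 50 CPM; diamonds are the 8 genes. The other NADPH oxidases sit at or under 1.90 CPM, and 8 of 13 genes of the oxidase list but 0 of 13 of the nitric oxide list lie above 50 CPM.

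Over the 3 libraries, the genes whose pattern lay nearest to each member, by the root mean square difference of centred log2 CPM, were Noc4l, Haghl and Cd160 for Cybb (0.014 to 0.023), and Acsf3, Mbd5 and Ndufb8 for Cyba. They were Zzz3, Mat2a and Cpeb2 for Ncf1, Trim44, H13 and Ralgapb for Ncf4, and Zc3h12a, Sod2 and Tmem241 for Rac2. For Arg2 the nearest were Pcdhgb8, Slc16a3 and Igkv4-55, at a distance of 0.33 to 0.34, so no gene followed Arg2 as closely as others followed the oxidase genes. With 3 libraries many of the 11045 genes compared share any given pattern, and Nos2 and Arg1 had too few counts for this comparison.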

How the data were processed

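Bulk RNA sequencing of 3 libraries was analysed from the deposited table of whole-number read counts per gene. Per the submitters' processing notes, bcl2fastq, STAR 2.75, featureCounts and DESeq2 1.18.1 were used with mm10, with no role given; the labels' protocols name a stranded kit for total RNA with an input of 8 ng. The deposited gene length, whose definition is not given in the sources used here, served for per-kilobase values. Entrez identifiers of all 8 genes matched RefSeq (GRCm38.p6), and 25 symbols stored as dates were restored. CPM used TMM factors of 1.04, 1.01 and 0.950 (edgeR 4.0.16, R 4.3.3).

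The 15490 genes whose counts summed to 10 or more were tested against 1 and 50 CPM by edgeR's quasi-likelihood F test with an intercept-only design. Because edgeR's own function takes no such null, the statistic was computed from its fit and tested on simulated data. P-values are two-sided and Benjamini-Hochberg adjusted over these genes, threshold 0.05. DESeq2 1.42.0 and limma 3.58.1 were alternatives. Pair differences had 0.5 counts added and an exact sign permutation test (scipy 1.17.1). Intervals are exact 95% Poisson intervals, and like the limit of 3 counts for a count of 0 they cover counting error only. Named genes were all 8, the 2 highest and 2 lowest of each pathway list, a few fixed partners, the 2 highest of each marker list, and the 3 nearest in pattern. Some genes that this rule names are not reported here. The 8 genes and all lists were chosen with earlier results of these data known.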

Additional observations from a re-analysis of the deposited data

How the results depend on the processing

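The counts of the 8 genes above 1 CPM (5, and 5 to 6 without 1 replicate) and above 50 CPM (3, and 3 to 3) were within 1.5 times of themselves under all 11 alternatives: other normalisations, filters, tests, robust empirical Bayes, totals without mitochondrial genes and each replicate left out. The count below 50 CPM (3) ranged from 0 to 4 without 1 replicate, with 0 without replicate 3, and was 1 with edgeR's expression filter, which removes Nos2 and Arg1. Leaving out 1 replicate, the fitted log2 level over 1 CPM ranged from -0.225 to 1.05 for Nos2, -0.000196 to 0.997 for Arg1 and -0.0403 to 2.37 for Slc7a2 (each lowest without replicate 1), and from -0.0834 (without replicate 3) to 1.60 for Arg2. With limma it was -1.15 for Nos2 and -0.31 for Arg1. On CPM not scaled by length, Cyba fell under Cybb (-0.95) and Ncf1 rose over Ncf4 (0.51). With the length of GENCODE M21 exons, an alternative chosen after seeing the data, all 6 pair differences kept their sign, and Rac2 minus Rac1 was 1.90 in place of 0.95. Over all pairs of a named gene's call and an alternative, the call was lost with its direction kept in 14, of which Nos1 below 50 CPM gave 2 (without TMM and with robust empirical Bayes). Below 50 CPM, the other NADPH oxidases numbered 6, but 0 without replicate 3 and 1 with the expression filter, and the 4 inducers became 2 in both. Low counts limit Nos2, Arg1 and Arg2. No paired analysis was possible because the labels give 1 group.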

Other observations

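Oxidant defence genes, which clear superoxide and peroxide, were highest in replicate 1 for 13 of 21 measured genes. So were 7 of the 9 other NADPH oxidases and all 8 B cell markers. The share of all genes highest in replicate 1 was not computed, so this count does not set the oxidant defence genes apart. Gpx1, a glutathione peroxidase, had 527, 109 and 145 CPM in the 3 libraries, and Cat, the catalase gene, at 168, 73.5 and 80.9 CPM. Hmox1, the heme oxygenase of iron-recycling macrophages, was read at 214, 7.63 and 17.0 CPM, and Prdx2, the peroxiredoxin abundant in red cells, at 127, 22.0 and 31.7 CPM; these 2 were named after their values were seen. In edgeR's test 18 of the 21 lay above 1 CPM, 6 above 50 CPM and 8 below, beside 68.6%, 19.9% and 66.7% of all genes, and Gpx1 (adjusted p = 3.41e-04) and Cat (0.00213) were among those above 50 CPM. The 8 below became 4 without replicate 3 and 5 with edgeR's expression filter. Sod3 (2.01, 0.0713 and 0.0759 CPM) and Mpo (0.951, 0.357 and 0.380 CPM) were lowest. The erythroid and macrophage marker sums were also highest in replicate 1, and their part in these levels was not tested.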
